A study of Mus musculus with 4 samples.

Results

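The surface markers that order early B cell development were measured in *Ebf1*-/- fetal liver progenitors that carried either an empty retrovirus or one encoding *Mir195*. The members are all 12 array probes whose gene name is *Ly6a*, *Cd93*, *Ly6d*, *Cd24a*, *Bst1*, *Enpep*, *Cd72*, *Cd22*, *Cd69* or *Ptprc*, out of 39429 probes on the array. These 10 genes were each found, 8 of them with 1 probe and *Bst1* and *Cd72* with 2 probes. No accession of the 12 probes leads to another symbol in RefSeq. A probe whose accession had no match there kept its array name, so this does not show that all were matched. Lineage-negative (Lin-) cells were taken from mid-gestation fetal livers of C57BL/6 background mice lacking *Ebf1*, and the controls lack it as well. They were infected with the retrovirus MDH1-PGK-GFP, empty (EMPTY, 2 samples) or with a human genomic segment that holds *Mir195* (*Mir195*, 2 samples). The cells of all 4 samples grew on OP9, a mouse stromal cell line that supports lymphoid cells, with SCF, IL-7 and Flt-ligand at 10 ng/mL each. About 100 ng of RNA a sample was labelled with Cy3 and hybridised to its own 1-colour Agilent whole mouse genome array. The sources used here do not state a sort of infected cells before RNA extraction, or whether replicates came from separate cultures or animals, so each p-value measures only the spread between these samples.

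EBF1 is a transcription factor that B cell progenitors need to become pro-B cells, and cells without it stay at an early lymphoid stage from which T, NK and myeloid cells can still arise. B cell stages are told apart by surface proteins. Stem and multipotent progenitor cells carry Sca-1 (*Ly6a*), early progenitors carry AA4.1 (*Cd93*), and *Ly6d* marks the common lymphoid progenitors that lean towards the B lineage. Pro-B and pre-B cells gain heat-stable antigen (*Cd24a*), BP-3 (*Bst1*) and BP-1 (*Enpep*), while CD72 and CD22 are inhibitory receptors of the B cell surface and CD69 is a lectin of activated and maturing lymphocytes. *Ptprc* encodes CD45, which all nucleated blood cells carry and whose long form is B220. miR-195 belongs to the miR-15/16 family, whose members share a seed, the bases that pair with target messages.

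The mature miRNAs are shown because the virus carries *Mir195* into cells whose genome already holds it and relatives with the same seed. The segment in the virus is human, while the sequences here are those of RefSeq for the mouse (GRCm38.p6), 5′ to 3′, with the seed at bases 2 to 8 in capitals.
mmu-miR-195a-5p: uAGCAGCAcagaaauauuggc
mmu-miR-16-5p: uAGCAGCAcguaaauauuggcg
mmu-miR-15a-5p: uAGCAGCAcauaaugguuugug
mmu-miR-497a-5p: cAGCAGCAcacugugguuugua
The miR-195a-5p sequence lies at chr11:70235062-70235082 on the plus strand, and 11 of the 1738 mature miRNA entries of the table, under 10 names, carry this seed. Among the surface markers, *Ly6a* alone stands in the study's list of predicted mouse miR-195a-5p targets that was checked here. The study's other target predictions were not checked.

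Values are log2 signals relative to the 75th percentile of the same array, so that a difference of 1 is a doubling, and they are given in the order EMPTY replicate 1, EMPTY replicate 2, *Mir195* replicate 1, *Mir195* replicate 2. Levels of different probes are not compared, because each probe binds its message with its own strength. To be tested, a probe needed a value on every array and the scanner software's flag for well above background on both EMPTY or both *Mir195* arrays. By this filter 23731 probes were tested, among them 11 probes of 9 surface markers, all of which were well above background on all 4 arrays. The arrays had 23678 to 24700 probes well above background, and the 75th percentile of the processed signal was 1127 and 1030 with EMPTY and 902 and 922 with *Mir195*. Each surface marker probe is a single spot, and repeated spots of other probes had a median SD of 0.06 to 0.07 on the log2 scale within an array. On the shared slide EMPTY came first and *Mir195* last, so an effect of position and one of the virus cannot be told apart. *Ebf1* itself gave 2.01, 1.89, 1.85 and 2.03, which is no check of the genotype, because where its probe lies relative to the deletion is not given in the sources used here.

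No surface marker passed the test for a difference between the viruses. None of the 11 tested probes had an adjusted p under 0.05 in limma, against 0% of all 23731 tested probes, and none had an unadjusted p under 0.05, against 8.34% of all. None reached a log2 fold change of 1 in size, against 1.84% of all. The mean was higher with *Mir195* for 5 probes and lower for 6, and 53.0% of all tested probes were higher. The arrays of the viruses did not overlap for 4 of the 11 probes, against 37.8% of all: 1 lay higher with *Mir195* (*Cd22*, against 23.4%) and 3 lay lower (*Ly6a*, *Ly6d* and 1 *Bst1* probe, against 14.4%). The median log2 fold change over the 9 markers was -0.07, with 1 probe a gene, against 0.01 over 19042 genes. In these bulk samples fewer cells of a type and less RNA per cell cannot be told apart.

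**Figure D1:**
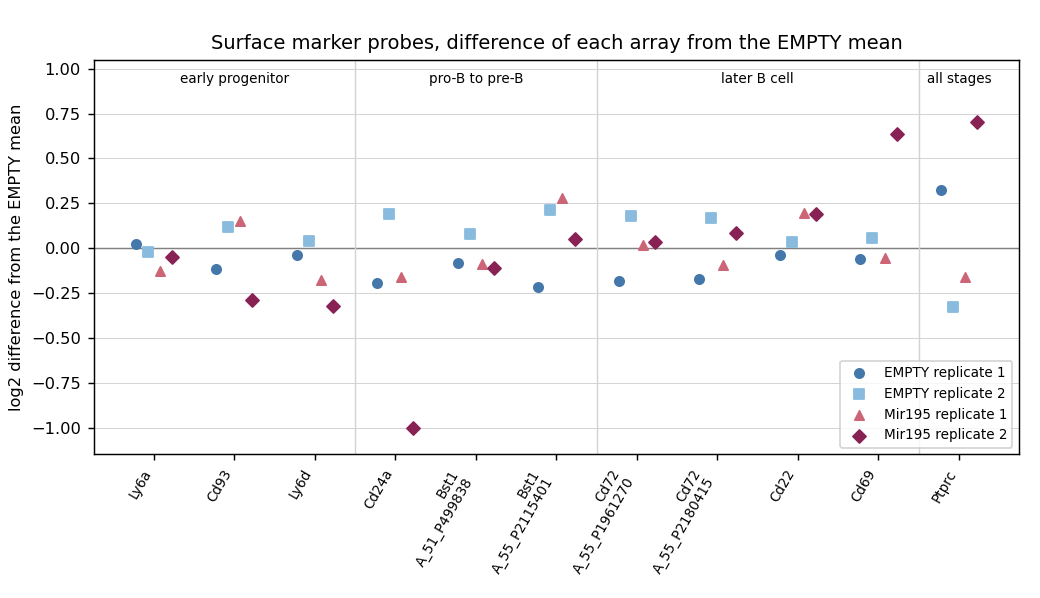
Difference of each array from the mean of the EMPTY arrays (y axis, log2) for the 11 tested probes (x axis), grouped by the stage their gene marks; each point is 1 array. *Mir195* replicate 2 lies farthest from the line for *Cd24a* (-1.0), *Ptprc* (0.70) and *Cd69* (0.64).

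Of the early progenitor markers, *Ly6a* and *Ly6d* had slightly lower values on both *Mir195* arrays and *Cd93* did not, and none passed the test. *Ly6a*, whose Sca-1 protein is a small anchored surface protein used to gate stem and multipotent cells, gave 6.36, 6.32, 6.22 and 6.30. Both *Mir195* arrays lay just below both EMPTY arrays. That is a log2 fold change of -0.09 (standard error 0.12, limma adjusted p = 0.915), or a signal 1.06-fold lower. *Ly6a* is also induced by interferon, and the 11 interferon-induced genes listed as a marker set, all of them tested, had 5 higher and 6 lower means, none past the adjusted threshold. Their summed signal, in multiples of the 75th percentile, was 343, 374, 372 and 326, so the viruses overlapped. What part these genes have in the *Ly6a* values was not tested.

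*Ly6d*, a GPI-anchored protein that separates B-biased from uncommitted lymphoid progenitors, gave 6.08, 6.15, 5.94 and 5.79. Both *Mir195* arrays lay below both EMPTY arrays again. The signal was 1.19-fold lower, a log2 fold change of -0.25 (standard error 0.12, limma adjusted p = 0.711) at percentile 9 of all tested probes. It was the marker with the lowest adjusted p of the set. *Cd93*, the C-type lectin receptor recognised by the AA4.1 antibody, gave 5.51, 5.75, 5.78 and 5.34. Here *Mir195* replicate 1 was the highest array and *Mir195* replicate 2 the lowest, so the *Mir195* arrays bracketed the EMPTY arrays. The log2 fold change of -0.07 (standard error 0.20, limma adjusted p = 0.964) was smaller than the difference of 0.44 between the *Mir195* arrays, and it was 0.05 without EMPTY replicate 2 and 0.15 without *Mir195* replicate 2.

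Among the pro-B to pre-B markers, *Cd24a* had the lowest fold change of the set and one array that stood far from the rest. *Cd24a*, a small mucin-like anchored protein that rises on pro-B cells and is also abundant on red cell precursors, gave -1.22, -0.84, -1.19 and -2.03. *Mir195* replicate 1 lay between the EMPTY arrays and *Mir195* replicate 2 lay below all of them, and the processed signals of 484, 576, 395 and 225 had the same lowest array. The mean was 1.50-fold lower with *Mir195*, a log2 fold change of -0.58 (standard error 0.32, limma adjusted p = 0.753) at percentile 2.3. The *Mir195* arrays differed by 0.84 and the EMPTY arrays by 0.38, so the *Mir195* arrays lay farther apart than the group means did. *Mir195* replicate 2 decided this value. Without it the log2 fold change was -0.16, and without *Mir195* replicate 1 it was -1.0 with a limma adjusted p of 0.0608, beside 3.81% of all tested probes past the adjusted threshold in that fit.

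Of the red cell genes listed as a marker set, 6 of 10, among them *Ahsp*, *Alas2*, *Klf1* and *Rhag*, were not well above background on any array. The summed signal of the 4 tested red cell genes was 0.237, 0.317, 0.319 and 0.212 of the 75th percentile, lowest on *Mir195* replicate 2 as *Cd24a* was. That low sum came from *Epor*, the erythropoietin receptor, named after its values were seen, which gave -3.35, -3.25, -3.26 and -7.93. Without *Epor* the sum of the other 3 was 0.139, 0.211, 0.214 and 0.208, lowest on EMPTY replicate 1. The part of red cell genes in the *Cd24a* values was not tested.

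*Bst1*, an ectoenzyme known as CD157 or BP-3 that stromal and early B cells carry, was read by 2 probes without a shared base. The brighter probe, A_51_P499838, gave -1.36, -1.20, -1.37 and -1.39, a spot 12.8 to 16.4 times its local background. Its *Mir195* arrays lay just below both EMPTY arrays, and the log2 fold change was -0.10 (standard error 0.12, limma adjusted p = 0.910). The dimmer probe, A_55_P2115401, was 2.94 to 3.53 times its background and gave -4.36, -3.93, -3.87 and -4.09. Its viruses overlapped, and the log2 fold change, 0.17 (standard error 0.19, limma adjusted p = 0.901), was -0.05 without EMPTY replicate 1. The 2 probes thus differed in the sign of their fold change, both within their standard errors of 0.

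*Enpep*, which encodes the aminopeptidase BP-1 of late pro-B and pre-B cells, stayed under the well-above-background flag on all 4 arrays. It was therefore not tested. Its spot was 1.38 to 1.55 times the local background, its log2 values were -8.52, -8.71, -8.44 and -8.31, and no direction is read from values at this level.

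The later B cell markers were all detected, and the clearest separation among them was small. *Cd22*, a sialic acid-binding inhibitory receptor, gave -0.92, -0.85, -0.69 and -0.70. The *Mir195* values were the upper pair, and each virus's arrays differed by at most 0.07. The log2 fold change was 0.19 (standard error 0.12, limma adjusted p = 0.788), a 1.14-fold higher signal at percentile 79.2. Before scaling, the processed signals were 595 and 572 with EMPTY and 561 and 569 with *Mir195*, both *Mir195* arrays below both EMPTY arrays, so the higher *Cd22* values are relative to the 75th percentile, which was lower on the *Mir195* arrays.

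*Cd72*, an inhibitory co-receptor that binds the semaphorin CD100, was read by 2 probes that share 49 bases and are therefore near repeats of the same measurement. Probe A_55_P1961270 gave 2.51, 2.87, 2.71 and 2.72, a log2 fold change of 0.03 (standard error 0.16, limma adjusted p = 0.985). Probe A_55_P2180415 gave 2.32, 2.66, 2.40 and 2.58, a log2 fold change of -0.0026 (standard error 0.17, limma adjusted p = 0.999). In both probes the *Mir195* arrays lay between EMPTY replicate 1, the lowest, and EMPTY replicate 2, the highest. The sign of the small fold change turned under some scalings and left-out arrays for both.

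*Cd69*, which holds lymphocytes in tissue by binding the receptor for sphingosine 1-phosphate, gave 2.63, 2.75, 2.63 and 3.33. The first 3 arrays lay within 0.12 of each other and *Mir195* replicate 2 lay above them. The log2 fold change of 0.29 (standard error 0.26, limma adjusted p = 0.871) became -0.06 on leaving out *Mir195* replicate 2 and 0.64 on leaving out *Mir195* replicate 1.

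*Ptprc* varied most between arrays of the same virus. Its probe ends, in an open reading frame, with a stop codon, here in capitals after the bases before it, 5′ to 3′ from the array file.
Ptprc A_55_P1990324, last 30 bases: gcgagcccagctccaacccagagttcaTAG
The exons whose splicing sets B220 lie near the other end of the message, so this probe cannot tell the forms of CD45 apart. It gave 2.21, 1.56, 1.72 and 2.59, with 1 high and 1 low array in each virus. The EMPTY arrays differed by 0.65 and the *Mir195* arrays by 0.86, at percentiles 95.9 and 96 of such differences over all tested probes. The log2 fold change was 0.27 (standard error 0.37, limma adjusted p = 0.916), and it was -0.06 without EMPTY replicate 2, -0.16 without *Mir195* replicate 2 and 0.70 without *Mir195* replicate 1. The arrays from high to low ran *Mir195* replicate 2, EMPTY replicate 1, *Mir195* replicate 1, EMPTY replicate 2 for *Ptprc*, and in the reverse order for *Cd24a*. For *Cd24a*, EMPTY replicate 1 at -1.22 and *Mir195* replicate 1 at -1.19 were closer than the SD between repeated spots. The processed signals of these genes did not run in reverse order.

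Values of other cell types stand beside these arrays, as sums over all listed genes with a value on every array, tested or not. The stromal genes of the OP9 list, of which 9 of 14 were tested, had a summed signal of 10.3, 11.2, 9.87 and 18.1. Of the 9 tested, 8 were highest on *Mir195* replicate 2, the array that stood apart for *Cd24a* and *Cd69*. *Ptprc* was also highest on that array, but its EMPTY arrays already differed by 0.65. *Dcn*, *Lum*, *Postn* and *Col5a2* of that list were not well above background on any array. T and NK genes had 2 higher and 17 lower means of 19 tested, none past the adjusted threshold, and their summed signal was 94.2 and 93.2 with EMPTY and 84.6 and 85.0 with *Mir195*. The myeloid genes, 11 of 15 tested, gave 17.6, 18.6, 18.1 and 18.3, with *Ngp*, *S100a8* and *S100a9* not above background on any array. Mast cell and basophil genes gave sums of 1.07 to 1.37, with 3 of 8 tested, and endothelial genes 3.03 to 3.47, with 3 of 6 tested. The part of these cells in the surface marker values was not tested.

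**Figure D2:**
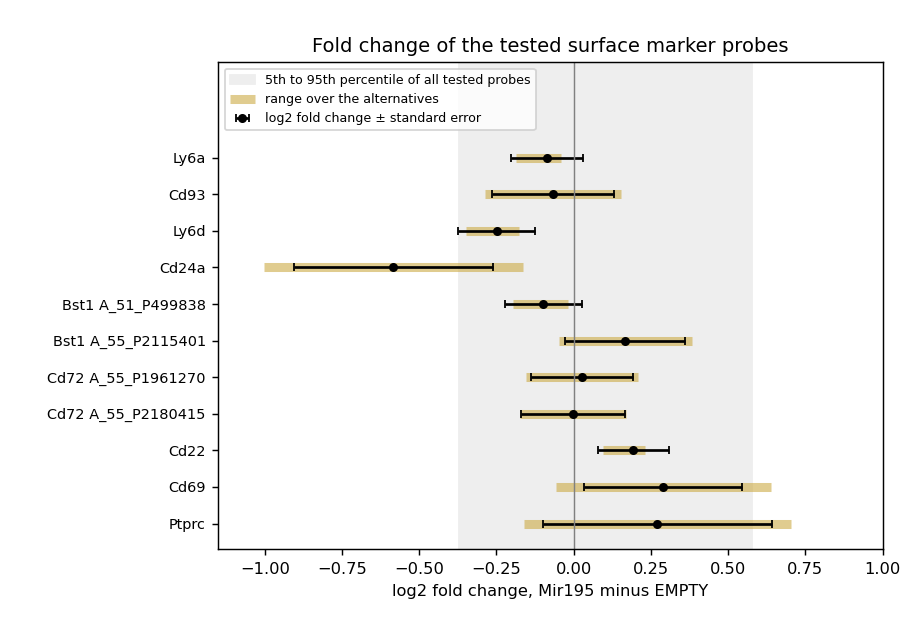
Log2 fold change, *Mir195* minus EMPTY (x axis), of the 11 tested probes with its standard error (bars, 2 arrays a virus), the range over alternative processing and left-out arrays (yellow) and the 5th to 95th percentile of all tested probes (grey, -0.37 to 0.58). Only *Cd24a* lies outside the grey band, at -0.58, and its range reaches from -1.0 to -0.16.

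The spread within a virus can be set beside the difference between viruses probe by probe. For 7 of the 11 probes the log2 fold change was smaller than its standard error. For 6 probes the EMPTY arrays differed from each other by more than the group means did. The shares of all tested probes were not counted for these, so neither count sets the markers apart from other probes. The *Mir195* arrays differed by more than the group means for 6 probes, against 63.7% of all tested probes. The highest array was EMPTY replicate 2 for 5 probes, against 26.1% of all, *Mir195* replicate 1 for 3, against 21.9%, and EMPTY replicate 1 for 1, against 17.7%. The lowest array was EMPTY replicate 1 for 5 probes, against 32.6%, and EMPTY replicate 2 and *Mir195* replicate 1 for 1 each, against 18.2% and 15.2%. *Mir195* replicate 2 was lowest for 4 probes, against 34.0%, and highest for 2, against 34.3%.

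The early progenitor markers (*Ly6a*, *Cd93*, *Ly6d*) were set against the later ones (*Cd72*, *Cd22*, *Cd69*) by the mean of their log2 values, with 1 probe a gene. *Ly6d* marks progenitors that already lean towards the B lineage, and *Cd69* also marks activated lymphocytes. The score is therefore a description of these genes and not a measure of B cell stage. The difference *Mir195* minus EMPTY was -0.14 for the early mean and 0.17 for the later mean, which makes early minus later -0.31. By array, as the difference from the EMPTY mean, early minus later was 0.05, -0.05, -0.10 and -0.51. Both *Mir195* arrays lay below both EMPTY arrays, but *Mir195* replicate 1 lay only 0.06 below EMPTY replicate 2, while the EMPTY arrays were 0.10 apart and the *Mir195* arrays 0.40 apart. The SD was 0.07 with EMPTY and 0.28 with *Mir195*. On *Mir195* replicate 2 the early mean was -0.22 and the later mean 0.29, the mean of 0.03 for *Cd72*, 0.19 for *Cd22* and 0.64 for *Cd69*. Without *Mir195* replicate 2 the contrast was -0.10. No test was made of this score, and with 2 arrays a virus an exact two-sided permutation test could not go below p = 0.333.

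**Figure D3:**
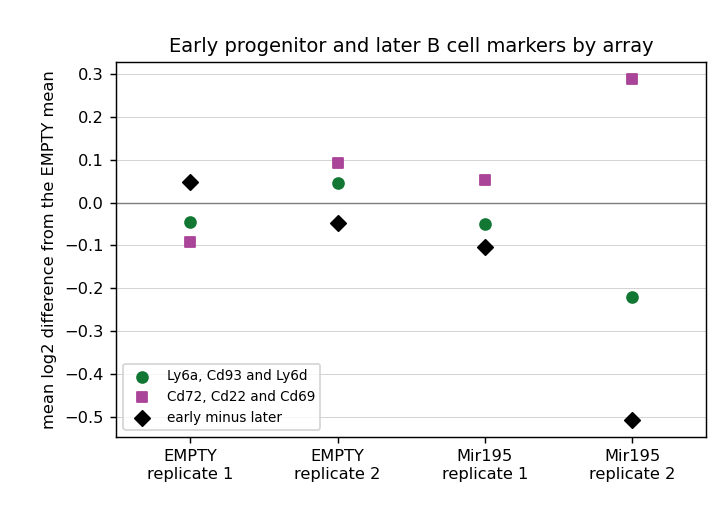
Mean log2 difference from the EMPTY mean (y axis) of the early markers (circles), the later markers (squares) and early minus later (diamonds) on each of the 4 arrays (x axis). The first 3 arrays lie between -0.10 and 0.09, and *Mir195* replicate 2 shows -0.51 for early minus later.

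Other surface genes of early progenitors, from a list of 12, had 11 tested and none past the adjusted threshold in either direction in limma (lowest adjusted p = 0.664). Of these 6 had a higher and 5 a lower mean with *Mir195*, with a median log2 fold change of 0.05 against 0.01 over all genes. *Cd34*, *Flt3*, *Il7r* and *Kit*, which define lymphoid and multipotent progenitors, were all among the tested genes, and *Slamf1* was not well above background. *Kit*, the receptor for the SCF in the medium, gave 1.49, 1.50, 1.66 and 1.87, a log2 fold change of 0.27. *Cd44*, the hyaluronan receptor, gave 2.03, 2.02, 2.21 and 2.34, a log2 fold change of 0.25. Both genes had their *Mir195* arrays above their EMPTY arrays, the opposite side from *Ly6a* and *Ly6d*. *Cd9*, a tetraspanin, gave 2.08, 1.98, 1.70 and 1.81, a log2 fold change of -0.27.

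Other surface genes of B cells, from a list of 20, had 18 tested and none past the adjusted threshold in either direction (limma lowest adjusted p = 0.530). They split into 9 higher and 9 lower means, with a median log2 fold change of -0.03, and 4 had an unadjusted p under 0.05, against 8.34% of all tested probes. *Cd79b*, a signalling chain of the B cell receptor, gave -1.18, -0.96, -0.26 and 0.49, a log2 fold change of 1.18 (standard error 0.28, limma adjusted p = 0.530). *Cd79a*, the partner chain, gave -6.18, -6.14, -6.35 and -6.71, a log2 fold change of -0.37 (standard error 0.16, limma adjusted p = 0.663). Its spots were about as dim as those of *Klf1*, at -6.34, -6.22, -6.63 and -7.00, which no array had well above background. No direction is read from *Cd79a* at this level. *Ms4a1*, which encodes CD20, gave -5.33, -5.42, -4.88 and -5.09, a log2 fold change of 0.39. These values were low as well, and no direction is read from them either. *Cxcr5*, the chemokine receptor of follicular B cells, gave 2.89, 2.60, 1.97 and 2.04, a log2 fold change of -0.74 (standard error 0.15, limma adjusted p = 0.530). *Il2ra*, the CD25 of pre-B cells and of early T cells, gave 0.85, 0.15, -0.36 and 0.18, a log2 fold change of -0.59. *Igll1* of this list was not analysed here. In the B lineage list of 14, which shares genes with the surface list, 11 were tested with 6 higher and 5 lower means, a median of 0.04 and none past the adjusted threshold. *Rag1*, which cuts the immunoglobulin genes for joining, gave -2.20, -2.24, -1.87 and -1.54, a log2 fold change of 0.52, and *Dntt*, which adds bases at those joins, gave 0.03, 0.06, -0.77 and -0.23, a log2 fold change of -0.54.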

How the data were processed

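The authors deposited 1 scanner file per array, with Cy3 intensity values from Agilent Feature Extraction (11.5.1.1 per the labels), and a table of log2 values, which per their methods were scaled to the 75th percentile in GeneSpring GX. The intensity values used were the processed signals, already corrected for background by the scanner software. From them control and outlier spots were left out, each array was divided by its 75th percentile, log2 was taken, and spots of a probe were averaged. The recomputed values correlated with the deposited table at r = 0.998 on each array, across probes. The viruses were compared in limma 3.58.1 (R 4.3.3), without a replicate block, over the 23731 tested probes with Benjamini-Hochberg adjustment at 0.05, and the fit was tested on simulated data. A statement over genes used the tested probe of highest mean signal. Gene names are those of the array files, and 26055 of 39429 probes were matched to RefSeq by accession. Named genes were all probes of the 10 members and, of the other lists, at most the 2 genes a direction of largest log2 fold change. Outside this rule, *Ebf1*, the progenitor markers *Cd34*, *Flt3* and *Il7r*, *Epor* and *Csf3r* were named as checks, after their values were seen. So were the listed genes not above background or not analysed. The members and lists were chosen with earlier results of these data known. Saturated spots numbered 0, and the number of arrays limits the precision. No genome build is named in the files, so probe positions are not given. Alternatives were other background correction, scalings, filters and variance estimates, the deposited table, the replicate block and each array left out. Some listed genes are not reported here.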

Additional observations from a re-analysis of the deposited data

How the results depend on the processing

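Under 13 alternatives to the processing and array choice, and one more added after seeing the data, no surface marker probe had an adjusted p under 0.05. Over all tested probes, against 0 as reported, 3 passed with median scaling and 0 to 904 when 1 array was left out, the 904 without *Mir195* replicate 1 and 3 without *Mir195* replicate 2. Without *Mir195* replicate 1, 3 marker probes had an unadjusted p under 0.05, against 17.6% of all. With normexp background correction 1 did, *Ly6d*, and 3754 of all did. The methods' t-test gave 1134 probes under 0.05 and 0 after Benjamini-Hochberg adjustment, and no marker probe at either. Replicate numbers are shared between the viruses, and deviations of same-numbered arrays correlated at r = -0.10 across probes. With 2 arrays a virus this sets a single EMPTY difference beside a single *Mir195* difference. It therefore cannot decide whether same-numbered samples belong together. With the replicate block 5 probes passed, and with the crossed pairing, added after seeing the data, 0 did, no marker probe in either.

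The median log2 fold change of the markers, -0.07, was -0.17 with median scaling, 0.012 with the mean of a gene's probes and -0.16 to -0.019 with 1 array left out. Median scaling moved the median of all tested probes from 0.01 to -0.08, and normexp to 0.07, so their shares higher were 33.1% and 64.5%. Early minus later ranged from -0.51 to -0.10 over all alternatives. *Ly6a*, *Ly6d*, *Cd24a*, *Cd22* and the brighter *Bst1* probe kept their sign in all. The signs of the others turned as follows. *Cd72* probe A_55_P2180415 was 0.017 with quantile normalization, 0.019 with the percentile over bright probes and in the deposited table, and -0.17 to 0.17 with 1 array left out. *Cd72* probe A_55_P1961270 was -0.071 with median scaling and -0.16 to 0.21 with 1 array left out. With 1 array left out, *Bst1* probe A_55_P2115401 ranged from -0.048 to 0.38, *Cd93* from -0.29 to 0.15, *Ptprc* from -0.16 to 0.70 and *Cd69* from -0.057 to 0.64. The causes were not tested. Weak signal limits *Enpep* and the dimmer *Bst1* probe.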
